A study of Mus musculus with 6 samples.

Results

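*Kitl* and *Kit*, the genes of Kit ligand and of its receptor, were followed across the cell types of the fetal mouse gonad. Both were taken by symbol, as 2 of the 26251 genes listed in the 6 libraries. The gonads came from embryos at E15.5 on a C57BL/6 background and were profiled by droplet-based single cell mRNA sequencing in 3 groups of 2 libraries each. Control XY and control XX gonads carried both wild-type alleles of *Amh* and of *Inhbb* (*Amh*+/+; *Inhbb*+/+), and dKO XY gonads lacked both genes (*Amh*-/-; *Inhbb*-/-) and are called dKO. *Amh* encodes anti-Müllerian hormone and *Inhbb* the subunit of activin B, so that the dKO testis has neither hormone. The gonads of 1 animal were pooled, dissociated, frozen and thawed before the libraries were made. The labels do not tie the libraries of a group to separate litters, so p-values measure only the spread between these libraries.

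KIT is a receptor tyrosine kinase of the class III family, the family that also holds the receptors for PDGF, CSF1 and FLT3 ligand. Its ligand KITL (stem cell factor, Steel factor) is made either anchored to the membrane of the producing cell or cleaved and released. Binding pairs the receptors, which then recruit the SRC family, phosphatidylinositol 3-kinase and RAS-MAP kinase pathways and are shut off by CBL, SHP1 and SOCS proteins. In the fetal gonad KITL comes from somatic cells and KIT guides the migration and survival of germ cells. KIT is also known from mast cells, blood progenitors, melanocytes and Leydig cells, and KITL from Sertoli and granulosa cells and from vessels.

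*Kit* (ENSMUSG00000005672.12) lies on the plus strand at chr5:75574916-75656722 of GRCm38 and spans 81.8 kb. *Kitl* (ENSMUSG00000019966.18) lies on the plus strand at chr10:100015630-100100416 and spans 84.8 kb. GENCODE lists 6 *Kitl* transcripts, 4 of them protein coding, and 8 *Kit* transcripts, 2 of them coding. The difference between the membrane-bound and the readily released ligand lies in 1 exon, which is shown because the UMI counts, made per gene, do not separate the forms. It is exon 6 of the 10 exons of Kitl-202, holds 84 bases or 28 codons of wholly coding sequence at chr10:100080857-100080940, is left out of Kitl-201, and encodes the main cleavage site of the ligand. It ends 4653 bases before the end of the spliced transcript of 5648 bases.
Kitl exon 6: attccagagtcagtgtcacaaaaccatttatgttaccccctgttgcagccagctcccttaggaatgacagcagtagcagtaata

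Stretches just before the gene starts of RefSeq are shown because *Kitl* moved together in several somatic cell types. They are RefSeq sequences of GRCm38.p6 on the plus strand, at chr10:100015772-100015801 for *Kitl* and chr5:75574877-75574906 for *Kit*. The RefSeq starts lie downstream of the GENCODE gene starts, so that the *Kitl* stretch falls inside the GENCODE gene span and the *Kit* stretch before it. Capitals mark the GC box (GGGCGG) and the TATA box (TATAAA).
Kitl promoter: tggcGGGCGGGCGGgagggagctgTATAAA
Kit promoter: ggagtgcgacccGGGCGGgagaagggaggg
In the 250 bases before the RefSeq start, searched on both strands, *Kitl* held 3 GC boxes, of which the 2 shown share bases, 1 TATA box at 25 bases before the start and 1 CAGAC element, the letters bound by SMAD proteins. *Kit* held 1 GC box at 98 bases before the start. Neither window held the CCAAT box, the E-box (CANNTG), the forkhead letters GTAAACA, the SOX letters ACAATG or the nuclear receptor letters AAGGTCA. Of 32851 mouse promoters of the same length, 32.7% held a GC box, 12.4% a TATA box, 42.2% the SMAD letters, 33.8% a CCAAT box, 66.2% an E-box, 3.17% the forkhead letters, 10.7% the SOX letters and 4.08% the nuclear receptor letters. The windows had a GC content of 69.2% for *Kitl* and 70.8% for *Kit*, against a median of 52.4% over all promoters. These matches are descriptions of the letters and not sites in use.

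After filtering, 39350 of 68064 barcodes were kept, with a median of 18415 to 27124 UMIs per cell and a total of 118475468 to 221675316 UMIs per library. Pairs of libraries shared 4 to 25 cell barcodes. Cells were clustered without *Kitl*, *Kit*, the genes of their pathway or the listed meiosis and fetal germ cell genes. Of these, genes that were also cell type markers, such as *Pdgfra*, were not left out. Clusters were named from their markers. Germ cells were instead the cells with at least 5 *Dazl* and at least 2 *Ddx4* UMIs, wherever they clustered. For each library the UMIs of every cell type were then added up, and levels are given in CPM, that is UMIs of the gene per 1000000 UMIs of that sum. The targeted genes were lower in dKO than in control XY: *Amh* in supporting cells was 2023 and 1920 CPM in control XY and 18.8 and 15.7 in dKO, and *Inhbb* was 163 and 186 in control XY and 42.7 and 51.2 in dKO. Control XX supporting cells had 1.36 and 1.42 CPM of *Amh* and 37.6 and 25.3 of *Inhbb*, both below dKO. UMIs of both genes thus remained in dKO. The control XX libraries had no Leydig cluster, and control XY had 15 and 9 germ cells, so that its replicate 2 entered no test of germ cells.

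Supporting cells, the lineage that gives Sertoli cells in the testis and granulosa cells in the ovary, had the highest *Kitl* level of the cell types in all 3 groups. The level in dKO supporting cells was above that of control XY in both libraries and remained far below that of control XX. *Kitl* in supporting cells was 192 and 192 CPM in control XY, 293 and 270 in dKO and 859 and 823 in control XX. The 3 groups did not overlap. *Kitl* rose by 0.56 ± 0.12 on the log2 scale (SE, n = 2 libraries per group), or 1.48-fold, from control XY to dKO (adjusted p = 0.0106, edgeR quasi-likelihood test with Benjamini-Hochberg adjustment), a contrast in which 17.7% of all genes tested were called at an adjusted p under 0.05. The adjusted p rose to 0.0635 without control XY replicate 1, to 0.0840 without control XY replicate 2 and to 0.0608 without dKO replicate 1, at log2 fold changes of 0.56, 0.56 and 0.52. Between the control sexes *Kitl* was 4.22-fold higher in XX (log2 fold change 2.08 ± 0.13, adjusted p = 7.33e-07, 49.5% of genes called). Between dKO and control XX it was 0.350 times the XX level (log2 fold change -1.51 ± 0.12, adjusted p = 9.02e-06, 40.5% of genes called).

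These sums hold different clusters, and their granulosa and interstitial markers also differed between the groups. The granulosa markers summed to 65.2 and 31.1 CPM in control XY, 553 and 625 in dKO and 3378 and 3283 in control XX, and the interstitial markers to 1038 and 1133, 550 and 536, and 454 and 650. Their part in the *Kitl* value was not tested. The control XX supporting cells were nearly all in the granulosa-like cluster, which had *Kitl* among its 10 leading genes although *Kitl* was not used for clustering. Control XY supporting cells were nearly all in the Sertoli-like cluster (244 and 517 cells), and dKO supporting cells were split over the Sertoli-like cluster (731 and 412 cells), a supporting lineage cluster that was neither (434 and 430) and the granulosa-like cluster (68 and 18).

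When supporting cells were clustered again, the Sertoli-like cells of dKO had *Kitl* levels a little above those of control XY. dKO supporting cells outside the Sertoli-like subclusters, taken as a sum, had *Kitl* levels close to those of the Sertoli-like cells of the same gonads. Most of them had somewhat less, and the few that clustered with ovarian cells had more. These Sertoli-like cells include a subcluster led by cell-cycle genes that had all 11 Sertoli markers raised, with *Kitl* at 224 and 228 CPM in control XY and 308 and 294 in dKO. *Kitl* in all Sertoli-like cells was 226 and 223 CPM in control XY and 316 and 289 in dKO. The libraries did not overlap, but the difference did not pass the test (log2 fold change 0.38 ± 0.12, adjusted p = 0.0580, 14.8% of genes called; DESeq2 gave an adjusted p of 0.0124). The remaining dKO supporting cells (490 and 451 cells) had 297 and 269 CPM, close to the Sertoli-like cells beside them, in a sum that includes the few cells with more. They were below the granulosa-like cells of control XX (log2 fold change -1.55 ± 0.13, adjusted p = 4.23e-06, 31.6% of genes called).

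A subcluster led by *Cpa1*, *Smoc2* and *Cyp11a1* held most of these remaining cells, 421 and 429 in dKO. Its *Kitl* level was 96.7 and 125 CPM in control XY (11 and 25 cells), 255 and 254 in dKO and 633 and 695 in control XX (14 and 6 cells). The groups were apart in the same order as in the whole lineage. A subcluster led by *Msx1* and *Thbs1*, with no control XY cell, had 513 and 559 CPM in dKO (58 and 16 cells) and 815 and 681 in control XX (1037 and 360 cells). The granulosa-like subcluster had 696 and 526 CPM in dKO (11 and 6 cells) and 897 and 941 in control XX (1666 and 546 cells). In both, each dKO library was below each control XX library and above every Sertoli-like sum, on very few dKO cells. Subclusters are descriptions, and their numbers of cells were not compared.

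**Figure D1:**
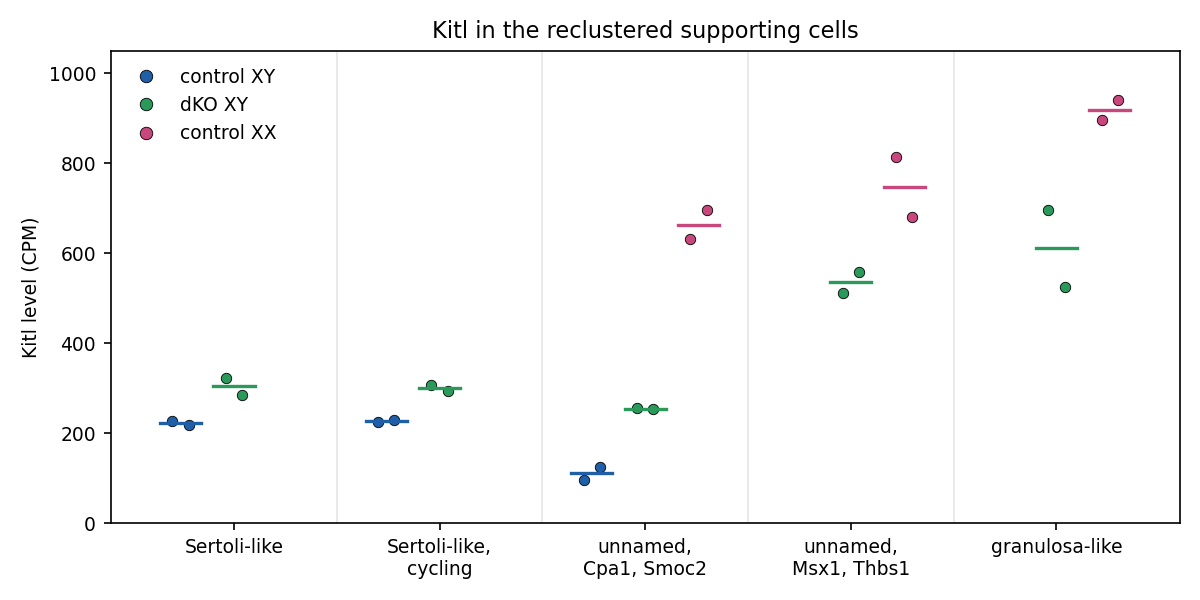
*Kitl* in CPM (linear axis from 0) in the subclusters of supporting cells, with a point for each library and the 3 groups side by side. Sertoli-like sums lie at 217 to 322 CPM, the subcluster led by *Cpa1* and *Smoc2* at 254 to 255 CPM in dKO and 633 to 695 in control XX, and the *Msx1* and granulosa-like subclusters at 513 to 696 CPM in dKO and 681 to 941 in control XX.

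*Kitl* was found in most supporting cells of every group. At least 1 *Kitl* UMI was seen in 87.9% and 88.8% of control XY supporting cells, 94.6% and 96.2% of dKO and 99.8% and 99.0% of control XX. After each cell was thinned to 5000 UMIs these shares were 54.3% and 56.2%, 69.5% and 66.8%, and 96.0% and 93.6%. Immune cells, at 9.87% to 30.8% before thinning, give a level for free RNA and rare expression together. Median UMIs per supporting cell were 25595 and 23040, 23854 and 28708, and 23919 and 18748 in the same order.

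*Kit* in supporting cells was low in every group and higher in both dKO and control XX than in control XY. The receptor had 1.01 and 1.80 CPM in control XY, 3.29 and 5.18 in dKO and 9.57 and 9.91 in control XX. The groups did not overlap. The rise in dKO was 2.85-fold (log2 fold change 1.51 ± 0.34, adjusted p = 0.0121), and that in control XX 6.27-fold (log2 fold change 2.65 ± 0.32, adjusted p = 8.25e-05). dKO was 0.455 times the control XX level (log2 fold change -1.14 ± 0.25, adjusted p = 0.00497). Thinned to 5000 UMIs, 0.451% and 0.655% of control XY, 1.71% and 2.53% of dKO and 4.69% and 4.81% of control XX supporting cells had a *Kit* UMI. In interstitial cells, which lie low in *Kit* in every group, this thinned share was 1.76% to 1.81% in control XY, 3.30% to 4.0% in dKO and 2.37% to 2.44% in control XX. In the largest interstitial cluster alone it was 1.05% and 0.978% in control XY and 2.38% and 2.53% in dKO. Against all interstitial cells of the same group, supporting cells were lower in control XY and in dKO and higher in control XX. Against the largest interstitial cluster alone they were lower in control XY and overlapped in dKO.

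Germ cell transcripts were higher in the supporting cells of dKO and of control XX than in those of control XY. The 8 germ cell markers summed to 41.8 and 25.5 CPM in control XY supporting cells, 90.4 and 103 in dKO and 84.1 and 109 in control XX. Unlike *Kit*, they overlapped between dKO and control XX. Their part in the *Kit* values was not tested, except by leaving out cells. Without the cells that held any *Dazl* or *Ddx4* UMI, *Kit* was 0.950 and 1.95 CPM in control XY, 3.15 and 3.25 in dKO and 9.15 and 9.63 in control XX. The difference between dKO and control XY was then 1.04 on the log2 scale (adjusted p = 0.0588). With all supporting cells but without control XY replicate 1 it was 1.24 (adjusted p = 0.0617). In the Sertoli-like cells alone *Kit* did not pass the test (log2 fold change 1.32 ± 0.50, adjusted p = 0.109). In the other dKO supporting cells *Kit* was below the granulosa-like cells of control XX (log2 fold change -1.01 ± 0.20, adjusted p = 0.00232).

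Germ cells of dKO had a higher *Kit* level than those of control XX. By the *Dazl* and *Ddx4* rule there were 442 and 388 germ cells in dKO and 298 and 222 in control XX. *Kit* in germ cells was 6.15 and 18.5 CPM in control XY, 30.3 and 37.1 in dKO and 23.3 and 14.2 in control XX. The dKO libraries were above all the others, on few cells in control XY. Control XY entered the fit with a single library, so the spread in the test came from the dKO and control XX libraries. The level was 1.75-fold higher in dKO than in control XX (log2 fold change 0.81 ± 0.24, adjusted p = 0.0120), where 39.5% of genes were called. Without control XX replicate 2 the difference was 0.56 on the log2 scale (adjusted p = 0.183). Against the 15 germ cells of the single control XY library in the fit, *Kit* was 2.59 ± 0.60 higher in dKO on the log2 scale (adjusted p = 0.0296, 2.36% of genes called) and 1.79 ± 0.64 higher in control XX (adjusted p = 0.0538, 22% of genes called). That library held 4 *Kit* UMIs in its germ cell cluster, and the dKO difference was 1.56 (adjusted p = 0.0672) once the library of 9 cells was included and 2.58 by DESeq2 (adjusted p = 0.0557), neither of them called.

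The germ cells of the groups differed in their meiosis genes, and *Kit* was compared within ranges of these genes. In the germ cell cluster the meiosis genes summed to 695.7 and 744.0 CPM in control XY, 2197 and 2242 in dKO and 9470 and 11110 in control XX. The cells were therefore split at 15.76 and 57.93 meiosis UMIs per 10000 into classes of low, middle and high meiosis level, which are ranges and not cell types. In the low class *Kit* was 32.6 and 44.0 CPM in dKO (213 and 144 cells) and 7.21 and 23.0 in control XY (14 and 7 cells), and control XX had 3 cells and 1 cell. In the middle class it was 35.5 and 48.1 CPM in dKO (156 and 129 cells) and 53.0 and 52.8 in control XX (58 and 39 cells). In the high class it was 24.8 and 47.0 CPM in dKO (30 and 23 cells) and 17.5 and 7.41 in control XX (174 and 155 cells). Among cells of the middle class, control XX was thus the higher group in every library, the opposite order to the whole population, and no test was made within classes. The classes did not match the groups in stage. In the middle class the meiosis genes were at 2857 and 2750 CPM in dKO and 3798 and 4416 in control XX. The pluripotency and fetal germ cell genes were at 1879 and 1787 CPM there in dKO and 915.6 and 796.8 in control XX. In the high class the meiosis genes were at 9054 and 7536 CPM against 11690 and 12260. Between 0 and 54 cells per library lay near a limit between classes.

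**Figure D2:**
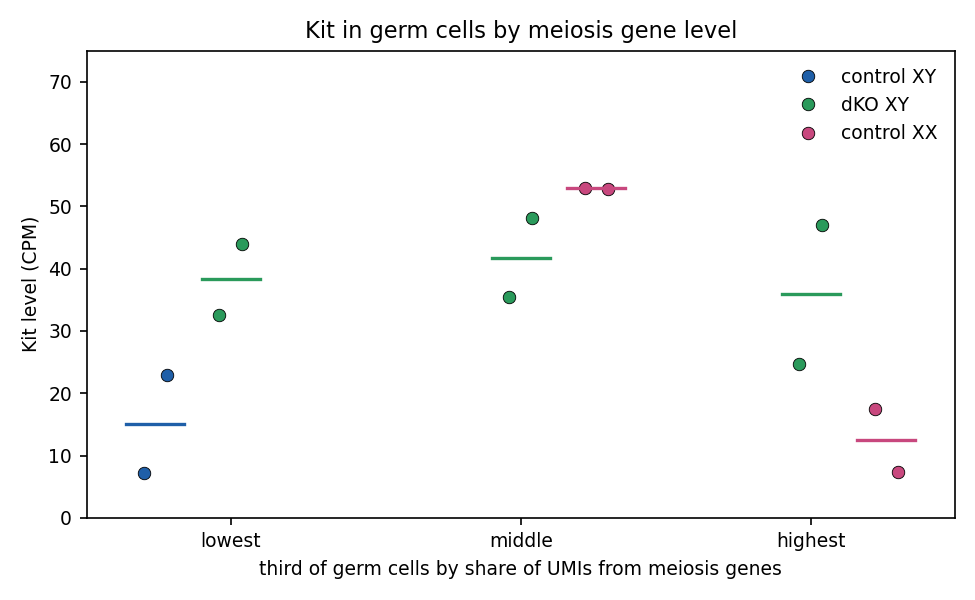
*Kit* in CPM (linear axis from 0) in germ cells of the germ cell cluster split by their summed meiosis UMIs, with a point for each library of at least 5 cells in a class. In the middle class control XX (53.0 and 52.8 CPM) lies above dKO (35.5 and 48.1), and in the high class below it (17.5 and 7.41 against 24.8 and 47.0).

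*Kitl* was higher in the germ cell sums when cells outside the germ cell cluster were included. By the rule it was 30.8 and 29.6 CPM in control XY, 45.2 and 92.0 in dKO and 169.7 and 130.9 in control XX. For the germ cells inside the cluster it was 19.8 and 17.9, 24.5 and 40.1, and 41.2 and 51.2 CPM. The rule also took 43 and 92 cells of other clusters in dKO and 63 and 27 in control XX, and the germ cell sums held markers of supporting cells. Sertoli markers summed to 1839 CPM in control XY replicate 1, 1000 and 1736 in dKO and 188 and 161 in control XX, and granulosa markers to 109, 168 and 275, and 770 and 500 in the same order. The part of these cells in the *Kit* values was tested in the germ cell cluster alone, where *Kit* was 0.88 higher on the log2 scale in dKO than in control XX (adjusted p = 0.000564).

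Fetal Leydig cells, the steroid-producing cells of the testis, had the highest *Kit* level in control XY and the highest mean level in dKO, where the range of immune cells overlapped theirs. Of the *Kit* differences between dKO and control XY, the fall in Leydig cells was the only fall that passed the test. Their *Kitl* rose in dKO. *Kit* in Leydig cells was 68.4 and 62.6 CPM in control XY (758 and 1090 cells) and 37.3 and 40.0 in dKO (675 and 692 cells). The groups were well apart. *Kit* fell to 0.581 times the control level (log2 fold change -0.78 ± 0.090, adjusted p = 0.00759, edgeR quasi-likelihood test, 4.87% of genes called). A *Kit* UMI was seen in 78.6% and 70.9% of the Leydig cells in control XY, and in 56.6% and 62.1% of those in dKO, at median depths of 41078 and 36107, and 35166 and 38288 UMIs. Thinned to 5000 UMIs the shares were 28.7% and 26.3% against 16.2% and 17.1%. The 6 Leydig markers summed to 37790 and 36060 CPM in control XY and 28570 and 28560 in dKO, and their part in the *Kit* value was not tested.

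*Kitl* in Leydig cells moved the other way. It was 36.0 and 39.9 CPM in control XY and 85.2 and 79.0 in dKO. The libraries did not overlap, and the rise was 2.13-fold (log2 fold change 1.09 ± 0.096, adjusted p = 0.00284). Supporting lineage markers in the Leydig sums were 190 and 204 CPM in control XY and 454 and 522 in dKO, and Sertoli markers 147 and 220 against 266 and 292. The 7 erythroid markers were 15.0 and 25.9 against 104 and 140, and the part of these lists in the *Kitl* value was not tested.

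Interstitial cells, the stroma from which Leydig cells arise, made up most cells of the testis and held low levels of both genes, each higher in dKO. *Kitl* was 27.0 and 28.2 CPM in control XY, 47.3 and 53.8 in dKO and 77.2 and 52.6 in control XX. dKO and control XX overlapped, and both were above control XY. The rise was 1.82-fold in dKO (log2 fold change 0.86 ± 0.15, adjusted p = 0.0140, 7.11% of genes called) and 2.44-fold in control XX (log2 fold change 1.29 ± 0.15, adjusted p = 0.000534, 25.2% of genes called). In dKO the adjusted p was 0.0890 without control XY replicate 1 and 0.0657 without control XY replicate 2, at log2 fold changes of 0.85 and 0.90. Nearly all control XX interstitial cells lay in 1 of the 3 interstitial clusters (1533 and 2947 cells). Within that cluster *Kitl* was 20.3 and 20.1 CPM in control XY, 29.7 and 25.6 in dKO and 73.9 and 52.0 in control XX, and the groups did not overlap. Over all interstitial cells supporting lineage markers summed to 151 and 175 CPM in control XY, 313 and 435 in dKO and 680 and 499 in control XX, and granulosa markers to 33.1 and 35.1, 71.1 and 74.3, and 158 and 94.7. The cells' own interstitial markers were 7123 and 6798 CPM in control XY, 4855 and 4748 in dKO and 6464 and 7123 in control XX, and erythroid markers 17.7 and 34.5, 243 and 303, and 41.6 and 98.9. The part of these lists in the *Kitl* value was not tested.

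*Kit* in interstitial cells was 5.81 and 6.03 CPM in control XY, 8.76 and 10.2 in dKO and 5.30 and 4.69 in control XX. The dKO libraries were above the rest. The rise from control XY was 1.59-fold (log2 fold change 0.67 ± 0.12, adjusted p = 0.0178), and control XX differed from control XY by -0.18 ± 0.13 on the log2 scale (adjusted p = 0.339). The rise in dKO lost its call without control XY replicate 1 (0.66, adjusted p = 0.149), control XY replicate 2 (0.70, adjusted p = 0.111) or dKO replicate 2 (0.59, adjusted p = 0.0710). Among XY cells *Kit* was higher in the cycling cluster (10.8 and 11.2 CPM in control XY, 13.5 and 13.9 in dKO) than in the largest cluster (2.50 and 2.57 in control XY, 5.17 and 5.38 in dKO). Control XX had 9 cells in the cycling cluster, and without that cluster control XX was 0.88 above control XY on the log2 scale (adjusted p = 0.00227), the opposite sign. At a resolution of 0.5 it was 0.77 above (adjusted p = 0.00450). Without the cycling cluster most control XY cells lay in the largest cluster and nearly all control XX cells in another. In that other cluster *Kit* was 6.6 and 4.79 CPM in control XY, 6.40 and 7.22 in dKO and 5.31 and 4.68 in control XX. There control XY overlapped both other groups. Leydig markers summed to 705 and 641 CPM in the control XY interstitial sums and 851 and 1151 in dKO, and germ cell markers to 7.72 and 8.30 against 29.8 and 35.4; their part in the *Kit* value was not tested.

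The dKO effect on *Kit* went opposite ways in Leydig and interstitial cells. The log2 change of *Kit* in Leydig cells minus that in interstitial cells was -1.47 ± 0.091 (adjusted p = 0.000343 for the interaction of cell type and group, 9.45% of genes called), with a fall in both Leydig libraries and a rise in both interstitial libraries. For *Kitl* the log2 change in supporting cells minus that in interstitial cells was -0.34 ± 0.10 (adjusted p = 0.0368, 21.6% of genes called). The call for *Kitl* was lost without dKO replicate 2 or without either control XY library, at values of -0.21, -0.31 and -0.37, and was kept at -0.47 without dKO replicate 1. On the CPM scale the order was the reverse, with mean *Kitl* rises of 89.5 CPM in supporting cells and 22.9 in interstitial cells. In immune cells, whose level holds free RNA and rare expression together, the mean rose by 15.2 CPM, without a call.

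**Figure D3:**
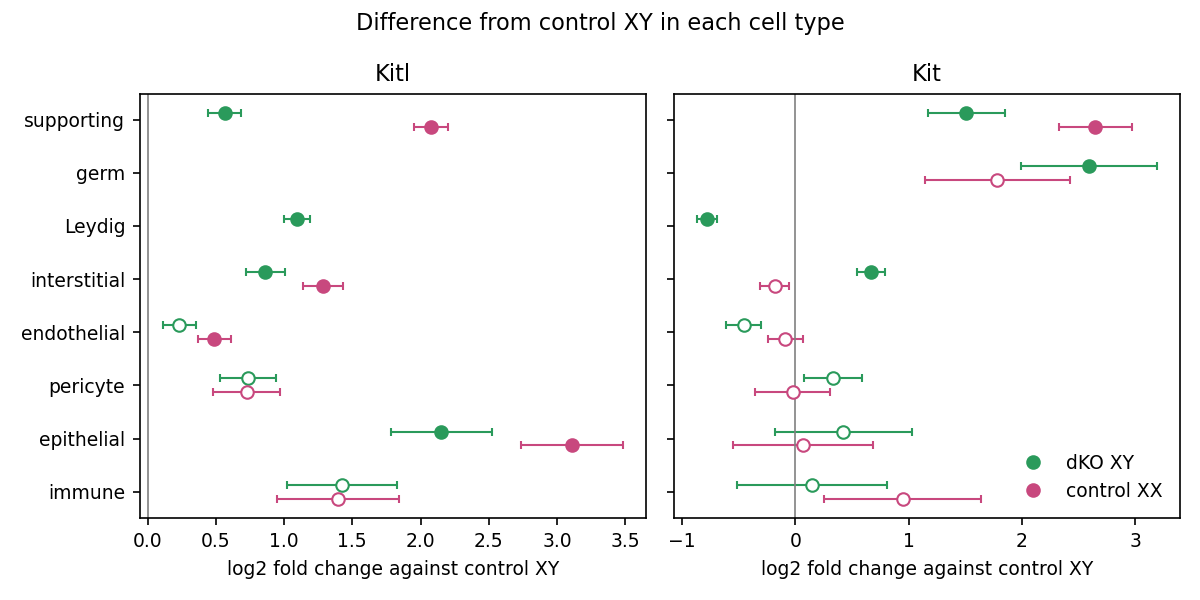
Log2 fold changes of *Kitl* and *Kit* against control XY by cell type, with bars for the standard error, filled points for an adjusted p under 0.05 and open points for the others. *Kitl* lies above 0 in each cell type shown, while *Kit* lies below 0 in Leydig cells of dKO (-0.78) and above 0 in interstitial (0.67) and supporting cells (1.51).

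The surface epithelium, which covers the gonad and is related to the supporting lineage, also had more *Kitl* in dKO and in control XX than in control XY. *Kitl* in epithelial cells was 30 and 41.8 CPM in control XY (30 and 40 cells), 167 and 151 in dKO (186 and 276 cells) and 423 and 177 in control XX (211 and 113 cells). The groups did not overlap, although the control XX libraries were far apart. The rise was 4.45-fold in dKO (log2 fold change 2.15 ± 0.37, adjusted p = 0.00728, 6.81% of genes called) and 8.63-fold in control XX (log2 fold change 3.11 ± 0.37, adjusted p = 0.00150, 4.73% of genes called). In dKO the adjusted p was 0.0914 without control XY replicate 1 and 0.0766 without control XY replicate 2. The control XX rise stayed called at a log2 fold change of 2.38 without control XX replicate 1 (adjusted p = 8.66e-05) and 3.59 without control XX replicate 2 (adjusted p = 3.32e-07). In these sums granulosa markers were 335 and 308 CPM in control XY, 966 and 726 in dKO and 1467 and 832 in control XX, in the same order as *Kitl*. The interstitial markers were at 6781 and 6658 CPM in the control XY sums, near their level in interstitial cells, 1531 and 1905 in dKO and 1639 and 3992 in control XX, in the opposite direction, so that the 30 and 40 control XY cells differed from the others in more than *Kitl*. The part of either list in the *Kitl* value was not tested. *Kit* was 3.43 and 5.78, 3.19 and 9.52, and 4.60 and 4.86 CPM, with all groups overlapping and no call (log2 fold changes 0.42 ± 0.60 and 0.07 ± 0.62, adjusted p = 0.753 and 0.972).

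Endothelial cells, which line the vessels, had high levels of both the ligand and the receptor in every group. *Kitl* was 167 and 166 CPM in control XY, 190 and 199 in dKO and 243 and 210 in control XX. The levels did not overlap. The difference from control XY was 0.23 ± 0.12 on the log2 scale in dKO (adjusted p = 0.660, 0.433% of genes called) and 0.49 ± 0.12 in control XX (adjusted p = 0.0400, 4.57% of genes called). The latter call was lost without either control XY library (adjusted p = 0.240 and 0.366) or without control XX replicate 1 (0.135). *Kit* was 46.0 and 44.6 CPM in control XY, 34.8 and 30.2 in dKO and 45.5 and 36.7 in control XX. The dKO libraries were the lowest pair, but neither difference passed the test (log2 fold changes -0.46 ± 0.15 and -0.09 ± 0.15, adjusted p = 0.342 and 0.828).

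Pericytes, the contractile cells around small vessels, had low levels of both genes. *Kitl* was 11.8 and 17.5 CPM in control XY, 25.7 and 24.0 in dKO and 28.9 and 20.7 in control XX, and *Kit* was 5.66 to 9.06 CPM over all libraries. No difference passed the test (*Kitl* log2 fold changes 0.74 ± 0.21 and 0.73 ± 0.24, adjusted p = 0.259 and 0.104; *Kit* 0.33 ± 0.25 and -0.02 ± 0.33, adjusted p = 0.987 and 0.980), with 0.249% of genes called for dKO and 7.43% for control XX.

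*Kit* in the immune cluster was carried by a small number of cells. It was 28.4 and 31.4 CPM in control XY, 42.4 and 24.4 in dKO and 14.0 and 98.6 in control XX, so that both the lowest and the highest library were control XX. The cluster also held red blood cells, and erythroid markers summed to 3227 and 7275 CPM in control XY, 12720 and 9694 in dKO and 46280 and 13420 in control XX, highest in the library with the least *Kit*. Cells with at least 3 *Kit* UMIs numbered 8 and 5 in control XY, 22 and 3 in dKO and 2 and 8 in control XX, and held 92 of 106, 71 of 90, 227 of 238, 60 of 72, 13 of 19 and 128 of 130 *Kit* UMIs of the cluster. Mast cell markers (granule proteases and related genes) summed to 15.51 CPM in control XX replicate 1 and 7571 in its replicate 2, and to 651 to 2064 in the XY libraries. All 8 of the high-*Kit* cells of control XX replicate 2 had at least 5 mast cell UMIs, as did 4 and 3 in control XY, 14 and 3 in dKO and 0 in control XX replicate 1. Neither *Kit* difference passed the test (log2 fold changes 0.15 ± 0.66 and 0.95 ± 0.70, adjusted p = 0.990 and 0.493), and the value for control XX was -1.02 without its replicate 2 and 1.76 without its replicate 1 (adjusted p = 0.0480). *Kitl* was 6.71 to 29.9 CPM over all libraries and did not pass the test either (adjusted p = 0.498 and 0.144). In this cluster 0 genes (0%) were called for dKO by edgeR, against 825 at an unadjusted p under 0.05 and 20 by DESeq2, and 2.07% for control XX.

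**Figure D4:**
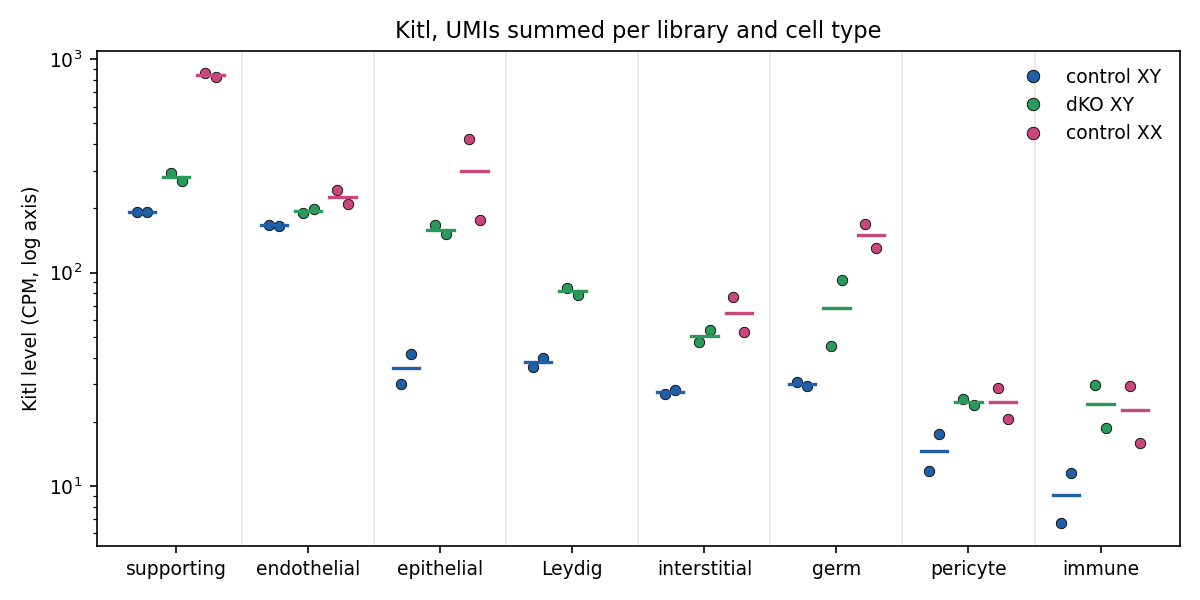
*Kitl* in CPM (log axis) by cell type, with a point for each library of at least 5 cells. Supporting cells are highest in each group, at 192 CPM in control XY, 270 to 293 in dKO and 823 to 859 in control XX, and immune cells and pericytes are lowest.

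**Figure D5:**
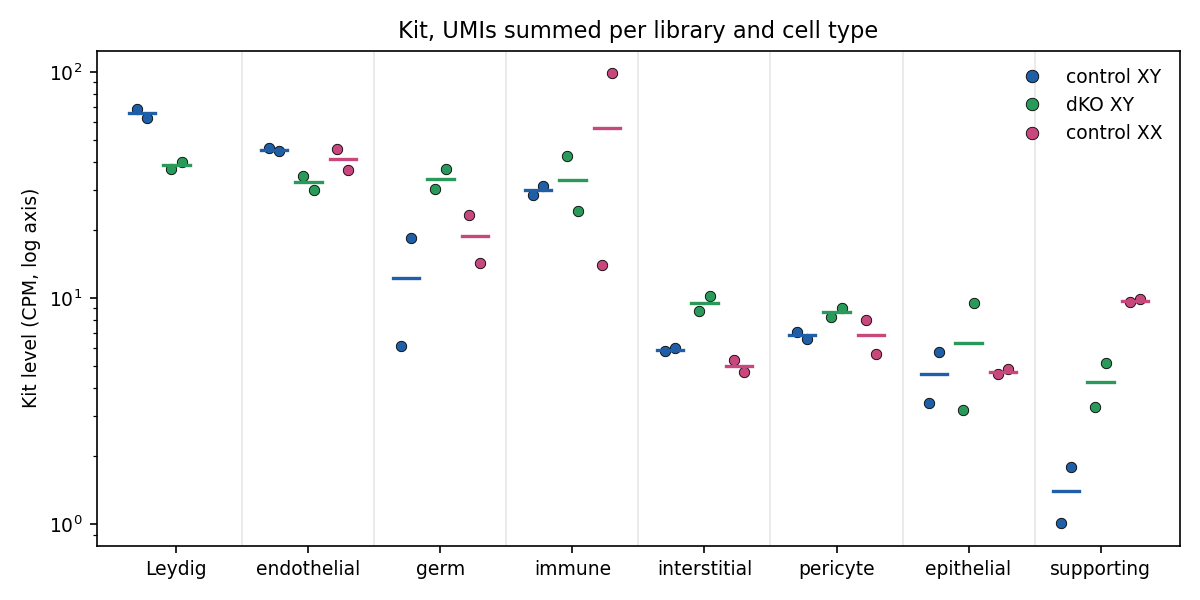
*Kit* in CPM (log axis) by cell type, with a point for each library of at least 5 cells. Leydig cells are highest in control XY (62.6 to 68.4 CPM), endothelial cells have 30.2 to 46.0 over all libraries, and the 2 control XX immune sums lie at 14.0 and 98.6.

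Ordered by level, *Kitl* in control XY ran from supporting cells over endothelial cells to Leydig, epithelial and germ cells, whose ranges overlapped, and then to interstitial cells, pericytes and immune cells. In dKO the order was supporting, endothelial and epithelial cells, then Leydig, germ and interstitial cells with overlapping ranges, then pericytes and immune cells, which also overlapped. In control XX it was supporting cells, then epithelial and endothelial cells, which overlapped, then germ cells, interstitial cells, and pericytes with immune cells. *Kit* in control XY ran from Leydig over endothelial and immune cells to pericytes, and supporting cells were lowest. In dKO Leydig cells came first, the ranges of germ, immune and endothelial cells overlapped, and so did those of the remaining types. In control XX immune and endothelial cells had the highest means and overlapped, followed by germ cells, supporting cells and pericytes. The range of the immune libraries (14.0 and 98.6 CPM) also held both germ cell libraries (14.2 and 23.3 CPM).

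The cell types were also compared by their share of all UMIs of each gene in a library. In such shares, fewer cells of a type and less RNA per cell cannot be told apart. Supporting cells gave 22.0% and 30.4% of the *Kitl* UMIs in control XY, 46.1% and 42% in dKO and 87.1% and 78.2% in control XX, with 3.77% and 6.23%, 15.1% and 15.1%, and 55.0% and 24.2% of the cells. Interstitial cells gave 49.9% and 38.5% of *Kitl* in control XY, 24.1% and 25.6% in dKO and 3.37% and 11.4% in control XX. Ligand UMIs thus came mostly from stroma and supporting cells together in the testes and from supporting cells in the ovary.

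For the receptor, Leydig cells gave 67.9% and 67.2% of the *Kit* UMIs in control XY and 29% and 37.8% in dKO. Germ cells gave 0.120% and 0.253% in control XY, 16.8% and 18.2% in dKO and 16.3% and 11.2% in control XX. In control XX, supporting cells with their low level but large number gave 46.4% and 26.5% and endothelial cells 22.0% and 17.3%. Interstitial cells held 742 and 811 *Kit* UMIs in control XY, 984 and 943 in dKO and 189 and 311 in control XX. In dKO replicate 1 this was more than the 963 of Leydig cells. In control XX replicate 2 it was more than the 287 of supporting cells.

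The other genes of the pathway, 74 in 4 lists, showed no common direction in the sums of all supporting cells. Of 70 tested between dKO and control XY, 6 were higher and 6 lower, a share near the 17.7% of all genes called, with a median log2 fold change of 0.07 against 0.01 over all genes tested. Without control XY replicate 1 the count of 12 fell to 7 (11.9% of all genes called), and without dKO replicate 2 to 6 (11.1%). Among 37 adaptors and effectors, *Pik3r3*, a regulatory subunit of phosphatidylinositol 3-kinase, rose from 1.52 and 2.18 CPM to 9.48 and 12.3 (log2 fold change 2.51 ± 0.25). *Pik3r1*, another such subunit, fell from 38.6 and 34.5 to 24.8 and 24.9 (-0.54 ± 0.12). *Plcg2*, a phospholipase of blood cells, rose from 0 and 0.193 CPM to 0.922 and 1.72.

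Of the 14 inhibitors, *Ptpn6*, which encodes the phosphatase SHP1, rose (1.54 ± 0.36 on the log2 scale) and *Socs1*, a suppressor of cytokine receptors, fell (-0.66 ± 0.16). Of 10 regulators, the germ cell transcription factor genes *Sohlh1* (0.126 and 0.128 CPM in control XY, 7.21 and 12.2 in dKO) and *Sohlh2* (0 and 0.385, 2.13 and 2.08) rose; the proteins of both are known for switching on *Kit* in germ cells. *Sohlh1* was 7.11 and 6.15 CPM in control XX supporting cells and 2.01 to 5.06 in dKO germ cells. In dKO germ cells *Sohlh2* was 47.7 and 36.1 CPM, *Plcg2* 15.9 and 24.0, *Ptpn6* 14.9 and 12.8 and *Pik3r3* 29.7 and 33.8. These were above the levels in dKO supporting cells, unlike *Sohlh1* and *Il34* (0.218 and 0.678 in dKO germ cells). The part of germ cell RNA in these rises was not tested. *Adam17*, whose product sheds ligands such as KITL from membranes, did not pass the test (0.03 ± 0.15). Of the 9 class III receptors and ligands, 4 fell, namely *Pdgfra* (-1.43 ± 0.21), *Pdgfrb* (-1.05 ± 0.31), *Pdgfa* (-1.21 ± 0.19) and *Flt3* (-1.98 ± 0.43), and *Il34*, a ligand of the CSF1 receptor, rose (2.28 ± 0.46). The interstitial markers, a list that holds *Pdgfra*, were also lower in the dKO sums, as given above, and in the Sertoli-like cells alone only *Flt3* and *Pdgfa* of these genes were called lower. Of all 68 pathway genes tested in the Sertoli-like cells, 12 were higher in dKO and 5 lower, where 14.8% of all genes were called. The higher genes held 5 of the 9 regulators tested there, and no regulator was lower. The median log2 fold change was 0.015 against -0.0024 over all genes tested.

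Between the germ cells of dKO and control XX the pathway genes were called about as often as all genes. In dKO, 18 of the 68 genes that could be tested were higher and 9 lower, with a median of 0.20 against -0.06 over all genes tested and 39.5% of those called. Among the inhibitors *Dusp6*, which encodes a phosphatase of MAP kinases, was at 32.7 and 28.1 CPM in dKO against 7.59 and 5.17 in control XX (log2 fold change 2.21 ± 0.26). *Spred2* (2.12 ± 0.28), *Spry4* (2.97 ± 0.45) and *Spry1* (2.00 ± 0.38), which encode inhibitors of RAS-MAP kinase signalling, were higher too, while *Spred1* and *Spry2* were not called. In all, 7 of the 14 inhibitors were higher and 1, *Socs6*, was lower (-0.54 ± 0.21). Of 38 adaptors and effectors, 6 were higher and 8 lower, among them *Pik3r3* (-1.73 ± 0.21), *Pik3cd* (1.77 ± 0.30) and *Gab2* (-1.37 ± 0.24). *Etv1*, a transcription factor that KIT signalling stabilises, was higher (2.35 ± 0.31), as was *Lmo2* (1.64 ± 0.43), and of the class III genes so were *Pdgfra* (0.89 ± 0.24), *Pdgfb* (1.71 ± 0.50) and *Pdgfrb* (1.33 ± 0.45). Of the genes named as higher in dKO germ cells, all but *Lmo2* were also called higher in the same contrast of supporting cells. In that contrast 40.5% of all genes were called. *Pdgfra* was 16.9 and 17.8 CPM in the dKO germ cell sums and 182.9 and 213.5 in dKO interstitial cells. The germ cell sums also held Sertoli markers, more in dKO, as given above. The part of somatic RNA in these values was not tested.

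In Leydig cells 3 of 65 pathway genes were called, a share near the 4.87% of all genes. They were higher in dKO, namely *Etv1* (7.64 and 7.83 CPM in control XY, 13.9 and 15.45 in dKO; 0.91 ± 0.12 on the log2 scale), *Spry4* (3.12 and 2.33, 5.27 and 6.28; 1.07 ± 0.20) and *Fyn*, a kinase of the SRC family (61.4 and 71.1, 87.5 and 99.3; 0.47 ± 0.10). The Leydig count depended on the libraries and on the fit. It was 5 without control XY replicate 1 (4.82% of all genes called), 1 without control XY replicate 2 (3.63%), 9 without dKO replicate 1 (10.5%) and 8 without dKO replicate 2 (10.8%). It was 13 with no filter on low counts (9.28%) and also with the replicate number as a block (18.7%). In interstitial cells 5 of 70 were higher and 2 lower, where 7.11% of all genes were called.

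The germ cell lists also moved in several somatic cell types. In supporting cells, where 17.7% of all genes were called, 9 of 14 meiosis genes were higher in dKO than in control XY, led by *Rec8* (4.31 ± 0.26), *Sycp1* (4.03 ± 0.45), *Smc1b* (3.10 ± 0.36) and *Hormad1* (3.18 ± 0.45). Of 10 pluripotency and fetal germ cell genes 6 were higher, led by *Dppa5a* (1.86 ± 0.25), *Sox2* (2.72 ± 0.48), *Pou5f1* (0.99 ± 0.23) and *Utf1* (0.77 ± 0.18). In interstitial cells 11 of 14 meiosis genes and 6 of 9 fetal germ cell genes were higher (7.11% of all genes called), and in Leydig cells 7 of 11 and 2 of 5 (4.87%). In pericytes 3 of 10 and 1 of 4 were higher (0.249% of all genes called), in epithelial cells 1 of 10 and 2 of 5 (6.81%) and in endothelial cells 0 of 5 and 0 of 4 (0.433%). In immune cells, where no gene at all was called, none of the 6 and 3 members tested was. The values were still mostly raised in these types. The median log2 fold change of the meiosis genes tested was 7.22 in epithelial, 2.126 in endothelial and 3.085 in immune cells. Over all genes the medians were 0.030, 0.0015 and -0.0041 in the same order. For the fetal germ cell genes the medians were 4.537, 0.4528 and 1.051. *Rec8* stood apart from the other leading meiosis genes in supporting cells. It was 82.4 and 80.4 CPM in control XX supporting cells, near its 90.2 and 53.1 in control XX germ cells. *Smc1b*, for comparison, was 52.6 and 63.35 CPM in control XX supporting cells and 2423 and 2908 in control XX germ cells. In germ cells, where 39.5% of all genes were called, 13 of 14 meiosis genes were lower in dKO than in control XX, led by *Sycp2* (-3.28 ± 0.24), *Msh5* (-3.29 ± 0.25), *Dmc1* (-3.02 ± 0.25) and *Syce3* (-3.98 ± 0.33), and all 10 fetal germ cell genes were higher, led by *Utf1* (3.85 ± 0.30), *Nanog* (4.38 ± 0.36), *Sox2* (2.79 ± 0.25) and *Pou5f1* (3.03 ± 0.29).

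The genes whose level was most like that of *Kitl* over 45 sums of a library and cell type, among 9288 genes, were *Reep1*, *Ypel2*, *Knop1*, *Enpp2* and *Laptm4b*, with Pearson correlations of log2(CPM + 1) of 0.930, 0.880, 0.866, 0.859 and 0.854. For *Kit* they were *Atox1*, *Atp1b3*, *Smap2*, *Hras* and *Ostf1*, with 0.845, 0.80, 0.762, 0.756 and 0.746. The points share libraries, depth and cell types, so these are descriptions. *Hras*, a RAS gene downstream of the receptor, is also a member of the pathway lists.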

How the data were processed

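Per the labels, the authors made the deposited UMI counts per gene and cell barcode with Cell Ranger on mm10, with a correction for barcode swapping according to the study's methods, and without normalization. Barcodes with over 2500 and under 9000 genes, at most 25% mitochondrial and 20% *Hbb* UMIs were kept. Cells were clustered in Seurat 5.3.0 (R 4.3.3, 20 dimensions, resolution 0.21) on 2957 variable genes. The 43 variable genes left out were *Kitl*, *Kit* and members of the pathway, meiosis and fetal germ cell lists. Members that were also cell type markers were not left out. Supporting cells were clustered again (8 dimensions, resolution 0.25). Scrublet (scanpy 1.11.5) marked 0 to 71 cells per library by its automatic threshold, which is too few to be used, so doublets stayed in and an alternative leaves out the 8% with the highest scores. A cluster took the name of the marker list with the highest mean fold, if at least 3 of its markers were raised; cell-cycle genes were no list. Sums per library and cell type of at least 10 cells were tested with edgeR 4.0.16 (filterByExpr, TMM, glmQLFit, glmQLFTest, genotype as the factor, all groups sharing 1 spread; Leydig cells with the XY libraries; library as a block for interactions) over all genes with Benjamini-Hochberg adjustment, called under 0.05, and with DESeq2 1.42.0 as an alternative. SE is the log2 fold change over the square root of F. The tests were checked on simulated counts. *Kitl*, *Kit*, the pathway lists and the tests were chosen with earlier results of these data known. Named pathway genes are up to 4 called per list with the smallest adjusted p in supporting and germ cells, of which 1 is not reported here; *Pdgfrb*, *Adam17*, *Socs6*, *Spred1*, *Spry2* and the Leydig genes were added after their values were seen, and likeness needed a mean log2(CPM + 1) of at least 3. The deviations of libraries with the same number had correlations of -0.219 to 0.134 over 13 comparisons. Between dKO and control XX they were negative in each cell type compared. These values were -0.186 in supporting, -0.217 in interstitial and -0.219 in endothelial cells and -0.163 in pericytes.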

Additional observations from a re-analysis of the deposited data

Results flagged for a closer look

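The change of *Kit* in dKO XY against control XY differed between Leydig and interstitial cells by a tested interaction, with a log2 difference of -1.47 (Leydig minus interstitial), a fall in both Leydig libraries and a rise in both interstitial ones. The change of *Kitl* differed between supporting and interstitial cells by the same kind of test, with a log2 difference of -0.34 (supporting minus interstitial), both changes being rises. In CPM the mean rise was larger in supporting cells (89.5) than in interstitial cells (22.9). The call of the *Kitl* interaction was lost in several of the other settings given below.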

How the results depend on the processing

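Each difference and each count of pathway genes called was recomputed under other settings, giving 587 values for 40 tests and counts. Of these values 517 stayed the same, and 10 of the 22 leading results did so in all. A difference stayed the same if it kept its direction and its side of the threshold. A count stayed the same if it remained of similar size. For *Kitl* in supporting cells (dKO XY against control XY) the log2 difference was 0.42 (adjusted p = 0.0501) with cells of over 1500 genes, and 0.52 to 0.62 without 1 library. For *Kit* in supporting cells it was 1.04 (adjusted p = 0.0588) without *Dazl* or *Ddx4* cells, and 1.14 to 2.07 without 1 library. *Kit* in interstitial cells was 0.67 (adjusted p = 0.0506) with the replicate block and 0.59 to 0.76 without 1 library, and *Kitl* there 0.80 to 0.94, both losing the call without either control XY library. *Kit* in interstitial cells of control XX turned to 0.77 at resolution 0.5, 0.75 with cells of over 1500 genes, 0.10 without the top 8% of doublet scores and 0.88 without the cycling cluster. *Kit* in germ cells of dKO XY against control XY was 2.58 (adjusted p = 0.0557) by DESeq2, 1.57 with the looser *Dazl* and *Ddx4* rule and 1.56 with libraries of at least 3 germ cells, all without a call. Control XX against control XY gained a call at 1.82 with no filter, 1.86 with the replicate block, 3.54 without doublets, 2.38 with the stricter rule and 1.76 in the germ cell cluster alone, and spanned 1.44 to 2.03 without 1 library. dKO XY against control XX spanned 0.56 to 1.14. *Kitl* in Sertoli-like cells was called by DESeq2 (0.38). The *Kitl* interaction lost its call by DESeq2 (-0.33), at resolution 0.5 (-0.19), with over 1500 genes (-0.25) and without 3 of the 4 libraries in turn (range over all 4 of -0.47 to -0.21). Pathway genes called were 6 to 12 in supporting cells (7.69% to 17.7% of all genes) and 1 to 9 in Leydig cells (3.63% to 10.8%) without 1 library, and 13 in Leydig cells with no filter (9.28%) and with the replicate block (18.7%). *Kit* values without a call also changed sign. Without 1 library they spanned -0.22 to 0.025 in endothelial cells of control XX, -0.19 to 0.23 in pericytes of control XX, -0.49 to 0.99 in epithelial cells of dKO XY, -0.18 to 0.52 in those of control XX, -0.35 to 0.50 in immune cells of dKO XY and -1.02 to 1.76 in those of control XX. Without doublets the value in pericytes of control XX was 0.060, at resolution 0.5 that in epithelial cells of control XX was -0.21, and without *Dazl* or *Ddx4* cells that in immune cells of dKO XY was -0.13. The germ cell cluster, the cycling cluster and the immune alternative were chosen after seeing the data. With the replicate block 33 of 38 values stayed the same in this sense. For interactions the replicate block was not run, since the library block contains it. The causes of these changes were not tested.

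With 2 libraries per group the precision is limited, and germ cells of control XY rest on 15 and 9 cells. UMIs of a gene do not separate its transcripts, and free RNA from lysed cells was not removed.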
